A study of Homo sapiens with 7 samples.

Results

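The 10 genes described here are the matrix metalloproteinase (MMP) genes MMP1, MMP2, MMP3, MMP10, MMP12, MMP14 and MMP28 and the genes of the tissue inhibitors of metalloproteinases (TIMPs), TIMP1, TIMP2 and TIMP3. They were chosen by name with their signals on these same arrays known, so every value of theirs is a description, and no test of theirs is given as support. The platform annotation gave them 24 of 54675 probe sets, and each gene is represented by its probe set with the highest mean. A gene counted as measured where its signal was at least 100 on at least 1 array, and all 10 were among the 12726 genes so measured. MMP10 reached 100 on 2 arrays, MMP12 on 3 and MMP28 on 4, so these passed through the arrays where they were high, and the other 7 genes were above 100 on all 7 arrays. Among the 10 genes, MMP28 had the dimmest brightest array, at 227. The selection left out other MMP genes, of which MMP8 reached 95.5 and so fell short of the minimum.

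MMPs are zinc endopeptidases that cleave the proteins of the extracellular matrix. They are made as inactive proenzymes, are switched on by removal of the propeptide, and are held in check by the TIMPs, which occupy the active site. Dermal fibroblasts are a main source of the collagenase, the stromelysins and gelatinase A in skin, and of the TIMPs that oppose them.

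Total RNA was taken at passage 10 from 1 strain of primary human dermal fibroblasts, originally from a healthy donor, and hybridised to 7 Affymetrix arrays. The study's methods describe more strains, and cultures grown in duplicate, than the labels of these 7 arrays name. There were 2 arrays of control cells and 1 array each of 5 lamin cultures. Of these, 1 expressed progerin, the truncated and permanently farnesylated lamin A of progeria, and 1 expressed progerin and was grown with the farnesyltransferase inhibitor (FTI) L-744832 at 10 nM for 48 h. The other cultures expressed wild-type prelamin A alone, prelamin A with the same FTI, or prelamin A together with ZMPSTE24, the protease that removes its farnesylated end. The study's methods describe lentiviral vectors with a CMV promoter, and the labels do not say whether the controls carried a vector or which untreated cultures received the DMSO vehicle. For the array with both prelamin A and FTI, the title leaves out prelamin A, whereas the source and treatment labels name both.

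The deposited values are MAS 5.0 signals on a linear scale, compared as log2(signal + 16), a scale on which the differences of dim genes are understated. Median signals per array lay between 64.9 and 77.0. All 9 fibroblast markers examined, among them COL1A1, VIM and LUM, read at least 100 on all 7 arrays. Because each condition other than control is 1 array, no difference has a replicate check of its own, and the only measure of error is the gap between the 2 controls. The labels do not say whether the controls were separate cultures, so that gap may be technical. As these were cell populations, fewer cells making a transcript and less RNA per cell cannot be told apart.

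MMP3, MMP10 and MMP12 were far higher in prelamin A cells than on any other array and were lower with FTI or ZMPSTE24, although MMP12 then still read above both controls. On the probe sets that stood for them, MMP2, TIMP1 and TIMP2 stayed within 1 log2 unit on all 7 arrays. A dimmer TIMP2 probe set ranged over 1.60 units. TIMP3 was above both controls in all 5 lamin cultures, with or without treatment. MMP1 was highest in prelamin A cells with or without ZMPSTE24, and MMP14 and MMP28, described further on, depended on the control or the probe set used. For 7 of the 10 genes the brightest array was that of prelamin A, as it was for 17.2% of all genes measured.

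**Figure D1:**
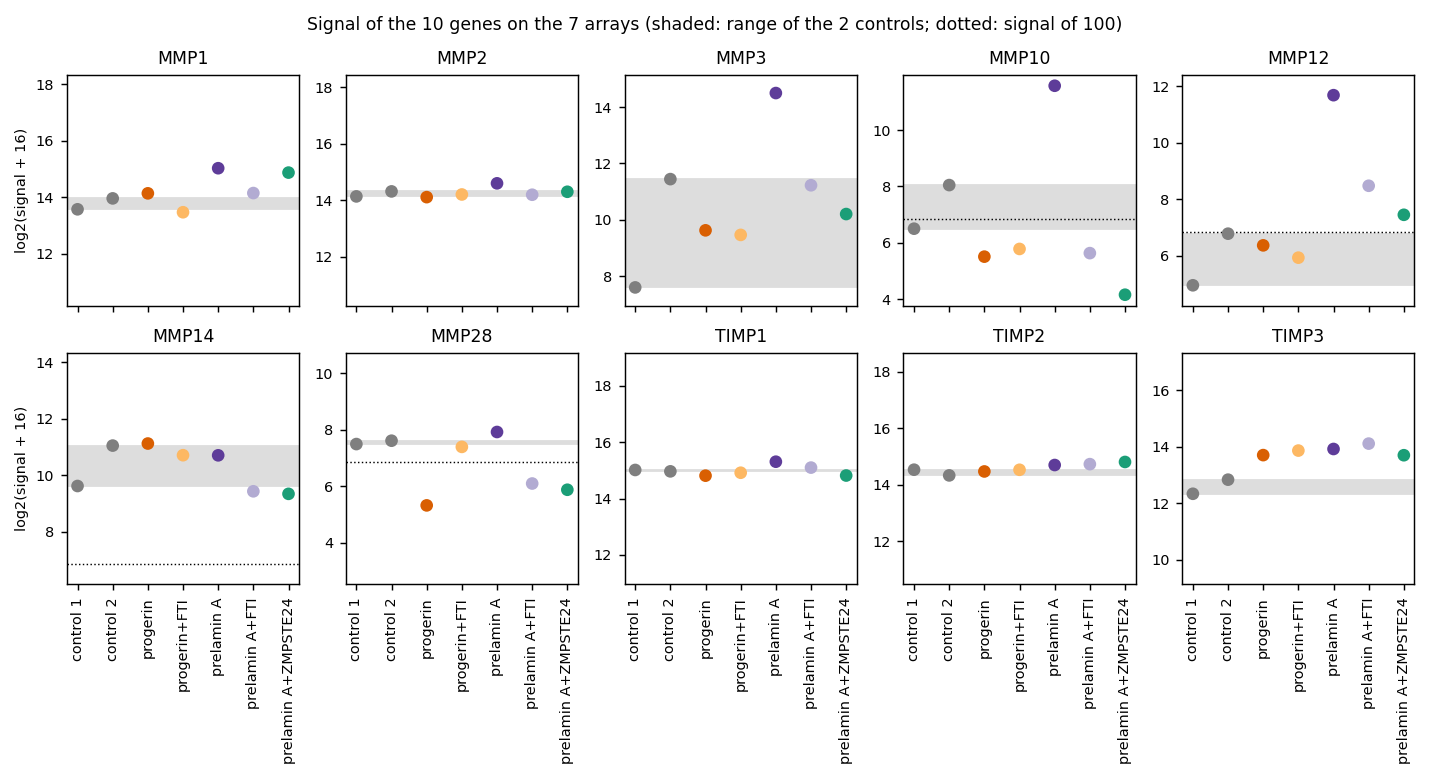
Signal of each gene as log2(signal + 16) (vertical axis; every panel spans the same number of units) on the 7 arrays (horizontal axis), 1 point per array, with the range of the 2 controls shaded and a dotted line at a signal of 100. Prelamin A is the top point for MMP3, MMP10 and MMP12, whereas for TIMP3 the points of all 5 lamin arrays lie above the shaded band.

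The collagenase and the stromelysins are neighbours. MMP10 (chr11:102770502-102780628), MMP1 (chr11:102789919-102798160), MMP3 (chr11:102835801-102843609) and MMP12 (chr11:102862736-102874982) lie within 104 kb of chromosome 11 in GRCh38.p14, in a cluster with the other MMP genes MMP7, MMP20, MMP27, MMP8 and MMP13.

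MMP3, or stromelysin 1, cleaves proteoglycans, fibronectin and the propeptides of other MMPs. Its signal was 179 and 2773 units on the controls, 776 with progerin, 692 with progerin and FTI, 23076 with prelamin A, 2381 with prelamin A and FTI and 1166 with prelamin A and ZMPSTE24. Prelamin A cells alone were above the control range, and the other 4 lamin arrays all lay between the controls. The log2 difference between prelamin A and the control mean was 4.97, which ranked 11 from the highest among 12726 genes, and it was 6.89 against control 1 alone and 3.05 against control 2 alone. From the prelamin A level, MMP3 was lower by a log2 difference of -3.27 with FTI and -4.29 with ZMPSTE24. The progerin value was 0.10 from the control mean, but 2.02 above control 1 and -1.82 from control 2, so the controls give it no direction.

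MMP10, stromelysin 2, has a substrate range much like that of MMP3. It read 74.8 and 249 on the controls, 29.7 with progerin, 39.2 with progerin and FTI, 3024 with prelamin A, 33.8 with prelamin A and FTI and 1.94 with prelamin A and ZMPSTE24. Only the prelamin A array lay above the controls, and the other 4 lamin arrays lay below both. The log2 difference from control was 4.29 in prelamin A cells and -1.76 in progerin cells. From prelamin A alone the log2 difference was -5.93 for FTI and -7.40 for ZMPSTE24. The treated signals are far below 100, so these sizes, and any rank by them, depend on the pseudocount and were -6.44 and -10.0 with a pseudocount of 1 and -4.98 and -5.55 with 64. The difference in progerin cells was -1.15 with a pseudocount of 64 and -2.17 with 1.

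MMP12, macrophage elastase, degrades elastin and is best known from macrophages, although fibroblasts can also make it. Its signal was 15.0 and 94.1 on the controls, 66.7 with progerin, 45.1 with progerin and FTI, 3291 with prelamin A, 341 with prelamin A and FTI and 159 with prelamin A and ZMPSTE24. All 3 prelamin A arrays lay above both controls, and both progerin arrays lay between them. The log2 difference of prelamin A from control was 5.82, which ranked 3 among all genes measured. FTI changed it by -3.21 and ZMPSTE24 by -4.24, yet the treated arrays were still 2.61 and 1.58 above the control mean. Because the controls were below 100, the difference for prelamin A was 6.40 with a pseudocount of 1 and 4.91 with 64.

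Macrophage markers were examined beside MMP12, and 7 of 8 had a probe set. Their summed signal was 258 and 263 on the controls, 592 and 385 on the progerin arrays, and 680 with prelamin A, 613 after FTI was added and 841 with ZMPSTE24. By the calls explained further on, CD14 rose by 2.01 with progerin and by 1.97 with prelamin A, whereas CD163 rose with prelamin A only (2.60). Of all genes, 3.76% were called higher with progerin and 6.29% with prelamin A. CD14 read 329 with progerin, where MMP12 lay between the controls, and 320 with prelamin A. The markers at 100 or more were CD14, CD163 and, with ZMPSTE24 only, CSF1R, and the leukocyte antigen gene PTPRC was at most 55.5. The summed level was highest on the ZMPSTE24 array, where MMP12 was at 159. Their part in the MMP12 signal was not tested.

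Markers of other cells that such a culture could hold were also read. Of 5 measured keratinocyte markers 1, KRT10, reached 100 on every array, and at most 2 of 5 endothelial and 1 of 4 melanocyte markers reached it on any. The endothelial receptor gene TEK read 23.5 and 2.19 on the controls and between 167 and 344 on the 5 lamin arrays, and it rose by 3.49 with progerin and by 2.77 with prelamin A. Embryonic kidney markers, examined because lentiviral vectors are commonly packaged in such cells, summed to 244 and 178 on the controls and to between 541 and 1027 on the 5 lamin arrays. Of these 6 markers, the neurofilament genes INA, NEFL and NEFM rose in prelamin A cells and INA and NEFL also with progerin. PAX2 was called in neither line (differences of 0.27 and -0.82), and SOX2 and LIN28B were below 100 on every array. NEFM read 98.0 with prelamin A and reached 100 only with prelamin A and FTI (123), so its rise lay between signals below 100. The summed signals of the macrophage, endothelial, melanocyte and embryonic kidney lists were all above both controls on each lamin array, as TIMP3 was. They were 363 to 503 for the endothelial list (270 and 192 on the controls) and 213 to 395 for the melanocyte list (205 and 189). The keratinocyte list went the other way, at 5051 to 6581 on the lamin arrays against 10745 and 7614 on the controls. KRT10 was below both controls on all 5 lamin arrays. The part of other cells in the TIMP3 signal was not tested.

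MMP1, interstitial collagenase, makes the first cut in fibrillar collagen. It read 12175 and 15930 on the controls, 18037 with progerin, 11332 with progerin and FTI, 33449 with prelamin A, 18167 with prelamin A and FTI and 30039 with prelamin A and ZMPSTE24. Prelamin A cells were 1.26 above the control mean on the log2 scale, 1.07 above control 2 and 1.46 above control 1. In contrast to MMP3, MMP10 and MMP12, MMP1 was nearly as high with ZMPSTE24 (difference -0.16) as without it, while FTI brought it to within 0.38 of the control mean. The gap between the controls was 0.39, and the progerin difference of 0.37 was no larger than that.

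The other 5 genes of the cluster read at most 376 on any array. MMP7, the matrilysin gene, read 187 with prelamin A and at most 67.7 elsewhere, and MMP8, neutrophil collagenase, read 95.5 with prelamin A and at most 34.1 elsewhere. MMP27 followed another course, at 376 where ZMPSTE24 was coexpressed, 232 for prelamin A alone and 82.9 after FTI. MMP13 and MMP20 stayed below 100 on every array. The log2 difference between prelamin A and control was thus uneven along the cluster, at 1.65 for MMP7, 0.42 for MMP27, 4.29 for MMP10, 1.26 for MMP1, 4.97 for MMP3 and 5.82 for MMP12.

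**Figure D2:**
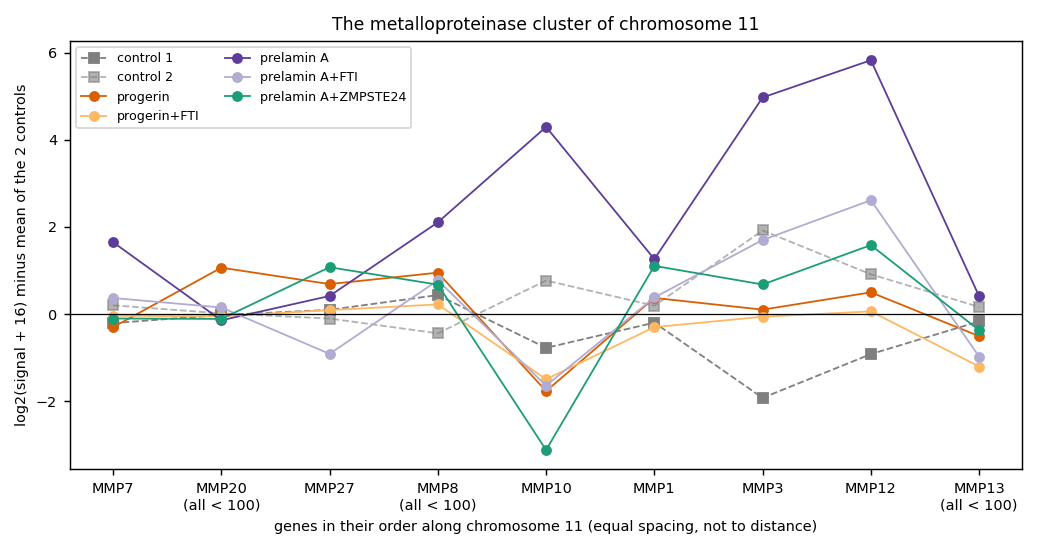
Log2(signal + 16) minus the mean of the 2 controls (vertical axis) for the 9 MMP genes of the chromosome 11 cluster, placed in chromosomal order at equal spacing (horizontal axis), with 1 line per array; 3 genes were below 100 on every array. The prelamin A line peaks at MMP10 (4.29), MMP3 (4.97) and MMP12 (5.82), with a dip at MMP1 (1.26), whereas the ZMPSTE24 line is higher at MMP1 (1.11) than at MMP10 (-3.11) or MMP3 (0.68).

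RefSeq promoter sequences in GRCh38.p14 were matched for 4 of the 10 genes, MMP10, MMP14, TIMP1 and TIMP3. They are shown because MMP10 had the widest range of the 10 genes over the arrays (7.40 log2 units) and TIMP1 one of the narrowest (0.50). The 120 bases just upstream of each start site are printed 5′ to 3′ on the gene's own strand, in lower case. Capitals mark matches to TGANTCA, where N is any base, and to TATAA, the core of the TATA box. TGANTCA is a loose form of the site bound by AP-1 (FOS and JUN dimers). The stretches are chr11:102780629-102780748 on the minus strand for MMP10, and on the plus strand chr14:22836465-22836584 for MMP14, chrX:47582316-47582435 for TIMP1 and chr22:32801585-32801704 for TIMP3.
MMP10: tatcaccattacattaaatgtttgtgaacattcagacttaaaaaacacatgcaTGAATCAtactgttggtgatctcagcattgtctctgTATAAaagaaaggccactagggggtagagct
MMP14: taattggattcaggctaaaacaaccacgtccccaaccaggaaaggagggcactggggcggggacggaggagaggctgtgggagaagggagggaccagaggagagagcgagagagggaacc
TIMP1: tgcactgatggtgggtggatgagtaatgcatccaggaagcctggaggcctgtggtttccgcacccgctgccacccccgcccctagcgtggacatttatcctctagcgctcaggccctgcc
TIMP3: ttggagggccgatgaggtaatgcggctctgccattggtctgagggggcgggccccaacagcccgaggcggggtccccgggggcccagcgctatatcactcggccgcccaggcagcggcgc

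Both strands of the 250 bases upstream were searched. The MMP10 promoter held TGANTCA with its first base 67 bases upstream of the start and TATAA at 31 bases, and TIMP3 held TATAA at 188 bases, outside the stretch shown. Of 27305 promoters in the table, 6.60% held TGANTCA and 19.6% held TATAA in the same window. These are matches of letters and not measured binding. The MMP10 match read TGAATCA. Near matches were not searched for, so a stretch without capitals may still hold a site that AP-1 binds.

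The AP-1 genes measured were FOS, FOSL1, FOSL2, JUN, JUNB and JUND. None was called in prelamin A cells by the test described further on, against 6.29% of all genes called higher and 4.02% lower. FOS, chosen for mention with JUN after their values were seen, read 1132 and 156 on the controls, 95.8 with progerin, 53.6 with progerin and FTI, 1081 with prelamin A, 526 with prelamin A and FTI and 422 with prelamin A and ZMPSTE24, so prelamin A cells did not exceed control 1. Its prelamin A difference from the control mean was 1.305, with a standard error of 1.16, and the part of AP-1 was not tested. JUN was lower on both controls (5727 and 5968) than on the 5 lamin arrays, which lay between 6849 and 9041.

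Gelatinase A and its activator were read next. MMP2 (chr16:55478830-55506691), which degrades denatured collagen and basement membrane, read 17983 and 20333 on the controls, 17663 with progerin, 18861 with progerin and FTI, 24807 with prelamin A, 18744 with prelamin A and FTI and 20152 with prelamin A and ZMPSTE24. Its whole range was 0.49 on the log2 scale, with a gap of 0.18 between the controls. The prelamin A array was the highest, 0.38 above the control mean, and with FTI the signal returned to between the controls.

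MMP14 (chr14:22836585-22847758) encodes the membrane-anchored metalloproteinase that activates the MMP2 proenzyme at the cell surface. It read 770 and 2104 on the controls, 2214 with progerin, 1658 with progerin and FTI, 1654 with prelamin A, 674 with prelamin A and FTI and 632 with prelamin A and ZMPSTE24. The controls were 1.43 apart on the log2 scale, and neither untreated lamin line stood apart from both of them by more than 0.07. Prelamin A was 1.09 above control 1 and -0.35 from control 2. Both treated prelamin A arrays were below both controls, with log2 differences of -1.28 for FTI and -1.37 for ZMPSTE24 from prelamin A alone. All 4 MMP14 probe sets were lower with each treatment, by log2 differences from -2.40 to -1.10 for FTI and from -2.27 to -1.37 for ZMPSTE24. The largest drop with each treatment was on a probe set of the kind in which some probes match other transcripts. Below both controls, however, were only 2 of the 4 with FTI and 3 of the 4 with ZMPSTE24, that probe set included in each. FTI in progerin cells gave differences between -0.53 and 0.10 over the 4 probe sets.

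MMP28, or epilysin, at chr17:35756249-35795641, gave signals that differed in direction between its probe sets. The probe set that stood for it is of the kind in which some probes match other transcripts, and read 165 and 180.5 on the controls, 24.1 with progerin, 153 with progerin and FTI, 227 with prelamin A, 52.6 with prelamin A and FTI and 42.9 with prelamin A and ZMPSTE24. On this probe set progerin was -2.23 from the control mean and FTI changed it by 2.07, in the opposite direction to prelamin A cells (-1.83 with FTI). Of the other 4 MMP28 probe sets, 3 were below 100 on every array and 1 reached 106, on the progerin array. That probe set read 83.9 and 92.0 on the controls, 106 with progerin and 51.3 with progerin and FTI, so its differences of 0.23 and -0.85 ran the other way.

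Of the inhibitor genes, TIMP1 and TIMP2 had narrow ranges on the probe sets that stood for them and TIMP3 a wider one. TIMP1 (chrX:47582436-47586789), a secreted inhibitor of most MMPs, read 33000 and 31910 on the controls, 28680 with progerin, 30835 with progerin and FTI, 40447 with prelamin A, 34982 with prelamin A and FTI and 28794 with prelamin A and ZMPSTE24. Its range was 0.50 log2 units, with prelamin A highest at 0.32 above the control mean and ZMPSTE24 -0.49 from prelamin A. The difference in progerin cells, -0.18, became -0.02 with quantile normalization.

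TIMP2 (chr17:78852977-78925387) inhibits MMPs and also takes part, with MMP14, in activating the MMP2 proenzyme. It read 23607 and 20519 on the controls, 22612 with progerin, 23562 with progerin and FTI, 26492 with prelamin A, 27067 with prelamin A and FTI and 28554 with prelamin A and ZMPSTE24. All 3 prelamin A arrays were above both controls, and prelamin A alone was 0.27 above their mean. A second bright probe set differed by 0.34 in progerin and 0.21 in prelamin A cells, whereas the dimmest of the 3 had controls 1.11 apart and a difference of 1.05 in progerin cells.

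TIMP3 (chr22:32801705-32863041) differs from the other TIMPs in that its product is bound to the extracellular matrix and also inhibits ADAM17 and the aggrecanases of the ADAMTS family. It read 5145 and 7281 on the controls, 13321 with progerin, 14890 with progerin and FTI, 15487 with prelamin A, 17681 with prelamin A and FTI and 13280 with prelamin A and ZMPSTE24. All 5 lamin arrays lay above both controls, which held for 1 of the 10 genes and for 11.9% of all genes measured; 0 of the 10 were below both controls on all 5, against 12.3% of all genes. With progerin the log2 difference from control was 1.12 and with prelamin A 1.34, and against control 2 alone 0.87 and 1.09. With FTI this probe set differed by 0.16 in the progerin line and 0.19 in the prelamin A line.

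The other 3 TIMP3 probe sets gave larger values for prelamin A, so that the 4 ranged from 1.34 to 2.32 above control, and from 0.93 to 1.33 for progerin. With ZMPSTE24 they ranged from -1.46 to -0.22 from prelamin A. With FTI the other 3 probe sets gave -0.39, -0.41 and -0.54 in prelamin A cells, opposite in sign to the first, and the 4 ranged from -0.04 to 0.16 in progerin cells. On 3 of the 4 all lamin arrays exceeded both controls, the exception being a probe set with 3943 units with ZMPSTE24 and 4023 on control 2.

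**Figure D3:**
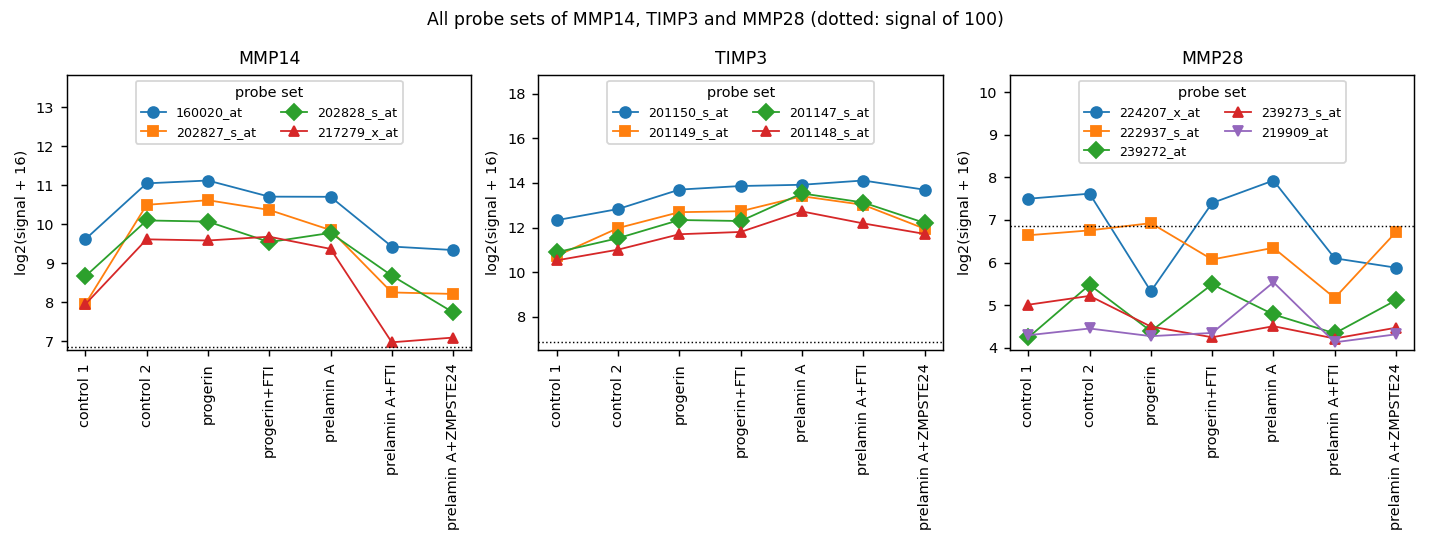
Log2(signal + 16) (vertical axis) of every probe set of MMP14, TIMP3 and MMP28 on the 7 arrays (horizontal axis), 1 line per probe set, with a dotted line at a signal of 100; heights of different probe sets are not comparable. The MMP14 lines share a rise from control 1 to control 2 and a drop on the treated prelamin A arrays, and the MMP28 lines do not run together. The TIMP3 lines all rise from control 1 through control 2 to progerin, by 0.48 to 1.24 between the controls.

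Against the background of all genes, calls were made with limma, in a model of 6 conditions that took its 1 residual degree of freedom from the pair of controls. A gene was called where its fold change exceeded 2 with p below 0.05 before adjustment. Since the 10 genes were selected with these contrasts known, their counts are given beside the background and nothing is read from them. In prelamin A cells MMP1, MMP3, MMP10, MMP12 and TIMP3 were called higher, 5 of 10 against 6.29% of all genes, and 0 of 10 lower against 4.02%. In progerin cells TIMP3 was called higher, 1 of 10 against 3.76%, and MMP28 lower, 1 of 10 against 2.04%. With FTI in progerin cells MMP28 was called higher (1 of 10 against 0.503%) and 0 of 10 lower (against 0.951%). With FTI in prelamin A cells MMP10, MMP12 and MMP28 were called lower, 3 of 10 against 1.62%, and 0 of 10 higher against 1.19%. With ZMPSTE24 the same 3 genes were called lower, 3 of 10 against 2.85%, and 0 of 10 higher against 2.18%. MMP3 was outside the lower calls for both treatments, although its differences ranked 3 and 6 from the lowest, and its standard error there was 1.85. Both treatment comparisons use the same prelamin A array, and both lines are set against the same controls. No gene of the 12726 had an adjusted p under 0.05 from limma in any of the 5 comparisons, the smallest being 0.0968 for prelamin A, 0.241 for progerin and 0.653 for ZMPSTE24, and close to 1 for FTI in both lines; the counts at an unadjusted p under 0.05 were 1508, 860, 649, 185 in progerin cells with FTI and 362 in prelamin A cells with FTI. Of all calls with FTI in progerin cells 64 were higher and 121 lower, or 97 and 95 with quantile normalization.

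**Figure D4:**
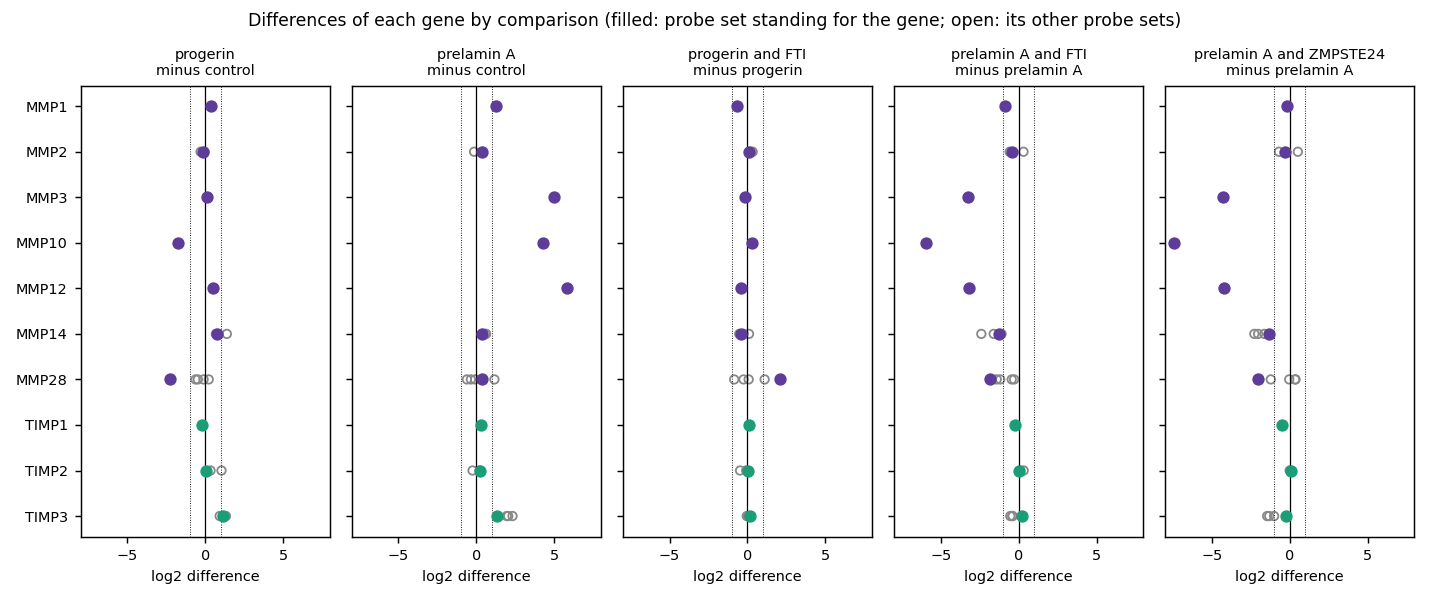
Log2 difference (horizontal axis, dotted lines at 1 unit either side of 0) of each gene (vertical axis) in the 5 comparisons, with the probe set that stands for the gene filled (purple for MMP genes, green for TIMP genes) and its other probe sets open. MMP3, MMP10 and MMP12 lie at 4.29 to 5.82 for prelamin A and on the other side of 0 for both treatments, whereas the FTI panel of progerin cells has only MMP28 beyond 1 unit among the filled points.

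The controls themselves were more than 2-fold apart for MMP3, MMP10, MMP12 and MMP14, 4 of the 10 genes, against 9.28% of all genes. In all of these control 2 was the higher. Of the RNA quality ratios, 3′ over 5′ signal for β-actin was highest on the prelamin A array (1.62, against 1.06 to 1.498 on the others) and for GAPDH it was lowest there (0.861, against 0.879 to 0.943), and the part of RNA quality in its signals was not tested.

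The rest of the protease system was taken from 4 lists comprising 102 genes, of which 72 were measured. In either direction 9 of them were called for progerin, against 5.8% of all genes, and 13 for prelamin A, against 10.3%. With FTI, 1 was called in progerin cells, against 1.45% of all genes, and 9 in prelamin A cells, against 2.81%. With ZMPSTE24 11 were called, against 5.04%. Calls in this section are from limma at the same thresholds, with no adjusted p under 0.05. The shares of all genes to set beside each list are 6.29% higher and 4.02% lower for prelamin A, and 3.76% higher and 2.04% lower for progerin, and with lists this short no list is said to stand apart.

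Of 9 measured MMP family genes and regulators outside the selection, which included the membrane-anchored inhibitor gene RECK, 2 rose and 1 fell in prelamin A cells and 0 were called in progerin cells. MMP11, or stromelysin 3, read 190 and 178 on the controls, 184 with progerin, 194 with progerin and FTI, 465 with prelamin A, 123 with prelamin A and FTI and 125 with prelamin A and ZMPSTE24. With prelamin A it rose by 1.27 (standard error 0.32), and from there it fell by 1.79 with FTI and fell by 1.77 with ZMPSTE24 (standard error 0.37). MMP7 rose by 1.65 (standard error 0.36) and fell by 1.28 with FTI and fell by 1.75 with ZMPSTE24. It reached 100 on the prelamin A array alone (187), so it was measured only through the array where it was high. The list's median difference for prelamin A was 0.35, against -0.02 over all genes, and was -0.50 with FTI and -0.54 with ZMPSTE24. The 10 selected genes had medians of 0.82, -1.08 and -0.93. MMP27 fell by 1.33 with FTI, and MMP17, a membrane-anchored family member, fell by 1.27 in prelamin A cells, to 40.4 from 110 and 132 on the controls. From there MMP17 rose by 1.33 with FTI, to 125, and fell by 1.24 with ZMPSTE24, to 7.87. That last fall lay between signals below 100. Of all 4 lists, the only call with FTI in progerin cells was MMP25, another membrane-anchored member, which fell by 1.26.

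Of 22 measured genes of proenzyme activation and protease control, 2 rose in prelamin A cells (against 6.29% of all genes) and 0 fell, and 1 rose (against 3.76%) and 2 fell (against 2.04%) in progerin cells. A2M, a broad protease inhibitor that traps MMPs in the extracellular fluid, rose by 1.95 with progerin and by 3.07 with prelamin A (standard error 0.65), and it fell by 2.05 when prelamin A cells received FTI. Its signals were 44.0 and 6.82 on the controls, 127 with progerin, 74.3 with progerin and FTI, 294 with prelamin A, 58.8 with prelamin A and FTI and 69.7 with prelamin A and ZMPSTE24. The serine protease inhibitor gene TFPI2 rose by 1.63 in prelamin A cells, at 18319 units against 3890 and 8935 on the controls. SERPINF2, the plasmin inhibitor, fell by 1.57 with progerin, to 14.8 from 93.2 and 60.3 on the controls. It passed the signal minimum only through the prelamin A array, at 114, so the progerin difference lay between signals below that minimum. In prelamin A cells FTI took it to 8.95, and it fell by 2.38. SPOCK1, a matrix proteoglycan gene, fell by 1.47 in progerin cells. With ZMPSTE24, PLAU, the urokinase that activates plasminogen, rose by 1.37, and S100A10, a partner of annexin A2 in plasminogen binding, rose by 1.05.

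The ADAM and ADAMTS genes, whose products include targets of TIMP3, made up the third list. Of 17 measured, 0 rose and 5 fell, against 4.02% of all genes, in prelamin A cells (ADAM12, ADAMTS1, ADAMTS2, ADAMTS6 and ADAMTS10), and 0 rose and 2 fell, against 2.04%, in progerin cells (ADAM19 and ADAMTS2). The list median for prelamin A was -0.36, and 7 of the 17 were below both controls on all 5 lamin arrays, against the 12.3% of all genes given above. ADAMTS10, which acts on microfibrils, read 241 and 333 on the controls, 318 with progerin, 172 with progerin and FTI, 62.6 with prelamin A, 226 with prelamin A and FTI and 225 with prelamin A and ZMPSTE24. It fell by 1.93 (standard error 0.37), and it rose by 1.62 and 1.61 with FTI and ZMPSTE24. ADAMTS6 fell by 1.84 and ADAM12 by a log2 difference of -1.68, and of these ADAMTS6 rose by 1.41 with ZMPSTE24. ADAMTS1 rose by 1.53 with FTI in prelamin A cells, where ADAM19 fell by 1.18. With ZMPSTE24 ADAM19 fell by 1.63, ADAMTS2 fell by 1.10 and ADAMTS9 fell by 1.28. The ADAMTS9 fall, from 72.1 to 20.4, lay between signals below the minimum of 100.

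The last list held genes around MMP induction: transcription factors, cytokines, cytokine receptors and the receptor antagonist gene IL1RN, so not all of them are inducers. Of 24 measured, 3 rose (against 6.29% of all genes) and 0 fell in prelamin A cells. In progerin cells 2 rose (against 3.76%) and 2 fell (against 2.04%). IL1RN, the interleukin 1 receptor antagonist, rose by 2.62 with prelamin A (standard error 0.80), with controls of 1.94 and 46.0. It read 190 with prelamin A and at most 66.9 elsewhere, so it was measured only through that array. IL1A, the cytokine interleukin 1 alpha, rose by 1.22, to 104 from 50.4 and 24.3 on the controls. ETS2, a transcription factor of the ETS family, rose by 1.04 in progerin and 1.32 in prelamin A cells. ETV1, of the same family, fell by 1.00 with progerin, and in the prelamin A line it fell by 1.48 with ZMPSTE24. FOSL1, an AP-1 subunit, rose by 1.01 in progerin cells and JUNB, another, fell by 1.29.

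By pattern over the 7 arrays, the genes most like MMP3 among 5064 with a range of at least 1 log2 unit were FRMD6-AS1 (Pearson r = 0.980), the transcription factor gene SOX9 (0.976) and ARSG (0.970). For MMP2 they were RGS8 (0.957), ARSG (0.956) and DANCR (0.954), and for TIMP1 ANKRD44 (0.979), C12orf76 (0.969) and ENAH (0.955). These points share 1 strain and 1 platform and the prelamin A array is the highest in all of them, and without it r over the other 6 arrays lay between 0.811 and 0.965.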

How the data were processed

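RNA from 7 cultures of human dermal fibroblasts was measured on Affymetrix HG-U133 Plus 2.0 arrays. The deposited table holds 1 MAS 5.0 signal intensity per probe set and array, scaled by the authors; the trimmed mean was 500.1 on every array, a level other than the scaling target stated in the study's methods. Arrays carry no read depth, so their number limits the precision.

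Probe sets were named through GEO's platform annotation and RefSeq GRCh38.p14. Of 54675 probe sets, 62 array controls and 1801 with several genes were left out, and 41091 had 1 gene, of which 41037 were found in RefSeq by gene ID. The brightest probe set by mean signal stood for a gene, and 12726 genes reached 100 on at least 1 array. Signals were compared as log2(signal + 16) with limma 3.58.1 in R 4.3.3, in 1 model of 6 conditions with 1 residual degree of freedom, which assumes that the lone arrays vary as the controls do. Standard errors draw on all genes, with 3.50 prior degrees of freedom. The fold threshold of 2 and the unadjusted p threshold of 0.05 are those the study names in its results. Its own p-values came from the S-score test, for which its methods give a stricter threshold and which could not be run on these summarised signals. The p-values here were also adjusted by Benjamini and Hochberg. The code was tested on simulated data. The p-values measure only the spread between the 2 controls.

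The members, lists and comparisons were chosen with earlier results of these data known. Genes outside the selection were named where they had the largest difference among the calls of their list, up to 3 per list, and other called genes of a list could be named where its calls in a comparison and direction were 5 or fewer. FOS, FOSL2, JUN, JUND and the markers of other cells are named outside this rule, after their values were seen. Likeness was Pearson's r for MMP3, MMP2 and TIMP1. Alternatives were median centring, quantile normalization, pseudocounts of 1 and 64, no signal minimum, a mean signal of at least 100, other probe sets and leaving out either control.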

Additional observations from a re-analysis of the deposited data

Results flagged for a closer look

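Of the 10 genes, 4 differed from control in opposite directions in the progerin and prelamin A lines, and the same 4 differed with FTI in opposite directions in those lines, each at the probe set that stands for the gene. With 1 array per condition, none of these differences between the lines was tested. The share of all genes with such opposite directions was not counted, so nothing is read from the number of genes. The progerin differences from control were small for MMP2, at -0.11, and for TIMP1, at -0.18, or -0.02 with quantile normalization. Against control, the log2 difference of the prelamin A line minus that of the progerin line was 6.06 for MMP10, 2.60 for MMP28, 0.49 for MMP2 and 0.50 for TIMP1. For the effect of FTI, the prelamin A line minus the progerin line was -6.20 for MMP10, -3.90 for MMP28, -0.50 for MMP2 and -0.31 for TIMP1. The untreated arrays enter both sets of values, so the sets are not independent. For MMP10 the gap between the controls was 1.55 log2 units, for MMP28 0.12, for MMP2 0.18 and for TIMP1 -0.05. For MMP28 the other probe set that reached 100 gave -0.85 in progerin and -1.18 in prelamin A cells with FTI, the same direction in both. For MMP10 the FTI difference of 0.27 in progerin cells lay between signals of 29.7 and 39.2, below the minimum of 100.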

How the results depend on the processing

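The sign of the 50 log2 differences of the 10 genes was kept by all 50 with pseudocounts of 1 and 64, by 49 with median centring and 49 with quantile normalization, by 50 of 70 values from other probe sets, and by 17 and 19 of the 20 values left without control 1 and without control 2. Among called values, signs turned for MMP28 alone, with other probe sets: 0.23 in progerin cells, -0.85 and -0.25 with FTI in progerin cells, and 0.37 and 0.33 with ZMPSTE24. Counts of all genes called moved by over 1.5 times in some settings. With no signal minimum they were 1238 in progerin cells (738 as reported), 600 and 913 with FTI in progerin and prelamin A cells (185 and 358), and 1176 with ZMPSTE24 (641), with 19775 genes tested. With a mean of at least 100, with 11236 genes tested, the FTI counts were 69 and 197, and with a pseudocount of 64 they were 60 and 221. Of the other protease-system genes, 4 were called in progerin cells with a pseudocount of 64 (9 as reported), and 8 in prelamin A cells and 5 with FTI with a mean of at least 100 (13 and 9). With FTI in progerin cells (1 as reported) 0 were called with a pseudocount of 64, 0 with quantile normalization and 2 with no minimum, by limma. The causes were not tested. Leaving out a control leaves no residual degree of freedom, so it gives values with no test. No paired analysis was possible because no 2 groups share 2 replicate numbers. Signals below 100 are near background, which limits the sizes given for MMP10, MMP12 and MMP28.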
